A study of Homo sapiens with 12 samples.

Results

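The genes described here are 39 components of homologous recombination, the Fanconi anemia pathway and mismatch repair, chosen by name from the 55882 gene symbols of a count table. Earlier results of these data were known when they were chosen. All 39 had enough reads to be tested, among 14799 genes that did. They were measured by RNA sequencing in T47D, a luminal breast cancer cell line that carries the estrogen receptor, in 12 libraries that form 4 groups of 3. The groups were HOXB13 cells (T47D expressing ectopic HOXB13, a homeobox transcription factor) given 2 nM estradiol for 24 h, HOXB13 cells given the ethanol vehicle, control cells (labelled WT) given 2 nM estradiol for 24 h, and control cells given vehicle. Every group was first kept for 72 h in medium without phenol red that held 10% charcoal-stripped serum, which removes steroid hormones. Neither the vector nor the number of clones behind the HOXB13 cells is given in the sources used here, nor whether the control cells carried an empty vector, nor whether each replicate came from a culture of its own. The p-values therefore speak only of the spread among these libraries, which may be technical.

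Homologous recombination repairs a broken chromosome by copying the sister chromatid, so it works when DNA has been replicated. The MRN complex (MRE11A, RAD50, NBN) senses the break, RBBP8, EXO1 and BLM cut back its ends to single-stranded tails, and BRCA1, PALB2 and BRCA2 help a recombinase to coat them. The recombinase paralogs and the RAD54 translocases assist the search for the matching strand, the Fanconi proteins unhook crosslinked DNA, and the MSH proteins with PMS2 correct base mismatches left by replication. ATM, ATR, CHEK1 and CHEK2 are kinases that halt the cell cycle when DNA is damaged or replication stalls.

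Total counts per library were 17679824 to 21385996. HOXB13 itself had 110, 92 and 97 counts in HOXB13 estradiol libraries and 112, 106 and 108 in HOXB13 vehicle libraries, against 0, 0 and 0 in control estradiol libraries and 2, 0 and 1 in control vehicle libraries, as the labels say. All 10 luminal epithelial markers were present, at a summed 18951 to 25494 CPM per library (counts scaled to a common library total). Of 13 markers of non-epithelial cells, 8 stayed at or under 1 CPM in every library, CDH5 and HBB were at 0, and the summed level ranged only between 57.3 and 70.8 CPM over the 12 libraries. COL1A1 (50.5 to 64.7 CPM) made up most of that sum.

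The libraries numbered 2 stood apart from libraries 1 and 3 in all 4 groups, and this touched the repair genes. For 18 of the 39 genes (46.2%) library 2 was the lowest of its group in every group, against 19.6% of 12196 tested genes with a known transcript length. The median difference of library 2 from the mean of the other two was -0.20 on the log2 CPM scale, and reached -0.74 for BRCA2, -0.66 for FANCD2 and -0.82 for RAD54B. The difference varied with transcript length: Spearman's rho with the longest coding transcript (GENCODE release 29) was -0.49 over the 39 genes and -0.60 over the 12196 genes, as a description over genes that share the same libraries. Of all tested genes, those with transcripts up to 2000 bases were higher in library 2 by a median of 0.27, and those over 6000 bases were lower, with a median of -0.29. Among the repair genes the 10 with transcripts over 6000 bases had a median of -0.36 and the 16 between 2000 and 4000 bases a median of -0.14. All tested genes between 2000 and 4000 bases had a median of 0.06. Library 2 was lowest in every group for 37.5% of the repair genes in that range, against 9.53% of all. Between 4000 and 6000 bases these shares were 60% and 29.3%. Why the repair genes lay lower than genes of like length was not tested. Library 2 was low in both treatments, and results are given with and without these libraries where a call depends on them.

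**Figure D1:**
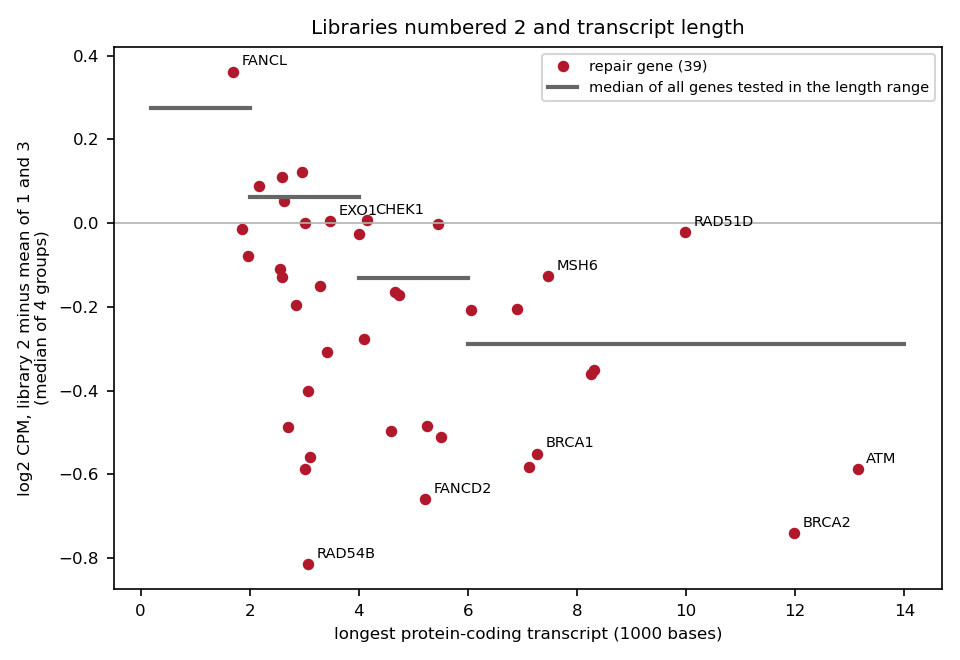
Deviation of the libraries numbered 2 by transcript length. The x axis gives the longest coding transcript in units of 1000 bases and the y axis the log2 CPM of library 2 minus the mean of libraries 1 and 3, as the median over the 4 groups; points are the 39 repair genes and grey lines the medians of all tested genes in 4 length ranges. RAD54B, BRCA2, ATM and FANCD2 lie near the bottom, while CHEK1 and EXO1 lie near 0.

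Upstream sequences are shown for the 5 genes with the largest estradiol effect and for 4 genes that hold an E2F octamer, 2 of which rose with estradiol (RMI1, FANCA) and 2 of which were not called (MSH3, PMS2). Each run is the 200 bases before the transcription start, 5′ to 3′ on the gene's own strand, from RefSeq on GRCh38.p14, and capitals mark matches to the motifs searched. Where RefSeq lists several starts, the one with the most E2F matches is shown, and otherwise the most downstream, a choice that bears only on the letters shown.
RBBP8: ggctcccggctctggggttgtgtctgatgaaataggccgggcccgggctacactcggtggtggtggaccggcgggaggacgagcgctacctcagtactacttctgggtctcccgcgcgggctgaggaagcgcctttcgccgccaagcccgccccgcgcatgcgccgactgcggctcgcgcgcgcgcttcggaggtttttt
EXO1: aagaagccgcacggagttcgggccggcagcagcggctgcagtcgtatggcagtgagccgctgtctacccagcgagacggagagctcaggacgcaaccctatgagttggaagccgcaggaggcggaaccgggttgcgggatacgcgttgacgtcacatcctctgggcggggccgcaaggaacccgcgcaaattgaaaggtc
BRCA1: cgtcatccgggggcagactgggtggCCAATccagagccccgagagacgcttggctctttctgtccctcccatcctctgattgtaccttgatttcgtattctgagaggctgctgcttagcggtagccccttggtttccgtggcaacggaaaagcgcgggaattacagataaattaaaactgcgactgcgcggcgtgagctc
BLM: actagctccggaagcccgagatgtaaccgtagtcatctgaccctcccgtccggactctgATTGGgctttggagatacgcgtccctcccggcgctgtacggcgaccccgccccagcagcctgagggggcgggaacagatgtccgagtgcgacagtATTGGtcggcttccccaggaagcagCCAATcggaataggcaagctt
BRCA2: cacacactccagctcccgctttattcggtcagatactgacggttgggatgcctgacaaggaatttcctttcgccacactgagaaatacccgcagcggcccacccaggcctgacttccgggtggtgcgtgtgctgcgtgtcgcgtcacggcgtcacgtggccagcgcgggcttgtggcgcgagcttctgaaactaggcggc
RMI1: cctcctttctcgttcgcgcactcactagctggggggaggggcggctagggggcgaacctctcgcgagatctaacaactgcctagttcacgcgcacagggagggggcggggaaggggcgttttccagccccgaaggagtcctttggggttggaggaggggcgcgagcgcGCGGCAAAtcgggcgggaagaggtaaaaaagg
FANCA: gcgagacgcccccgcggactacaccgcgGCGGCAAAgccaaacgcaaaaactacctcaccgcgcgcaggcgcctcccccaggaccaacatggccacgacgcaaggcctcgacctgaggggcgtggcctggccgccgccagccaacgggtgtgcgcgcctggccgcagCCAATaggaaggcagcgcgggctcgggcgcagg
MSH3: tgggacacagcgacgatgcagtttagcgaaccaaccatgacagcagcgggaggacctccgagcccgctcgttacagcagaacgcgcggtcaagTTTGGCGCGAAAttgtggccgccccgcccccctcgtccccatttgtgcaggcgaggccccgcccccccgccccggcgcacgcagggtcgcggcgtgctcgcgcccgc
PMS2: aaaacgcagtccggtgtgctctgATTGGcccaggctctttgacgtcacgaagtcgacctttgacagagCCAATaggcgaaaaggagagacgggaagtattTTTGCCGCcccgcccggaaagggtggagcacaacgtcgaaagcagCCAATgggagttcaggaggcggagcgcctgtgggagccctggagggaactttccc

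These stretches lie at chr18:22933667-22933866 (plus strand) for RBBP8, chr1:241848004-241848203 (plus strand) for EXO1, chr17:43125365-43125564 (minus strand) for BRCA1, chr15:90717146-90717345 (plus strand) for BLM and chr13:32315308-32315507 (plus strand) for BRCA2. The others lie at chr9:83980605-83980804 (plus strand) for RMI1, chr16:89816648-89816847 (minus strand) for FANCA, chr5:80654452-80654651 (plus strand) for MSH3 and chr7:6009050-6009249 (minus strand) for PMS2. Motifs were searched on both strands in a window of 300 bases (250 before the start and 50 after it), and 35 of the 39 genes matched an entry, with NBN, RAD54B, RMI2 and FANCI unmatched. E2F factors drive genes at the entry into S phase, and their site was searched as the octamers TTTGGCGC, TTTCCCGC, TTTGCCGC and TTTCGCGC, which can overlap one another, as the pair of matches on opposite strands in MSH3 does. A gene was counted when any of its windows, 1 for each listed start, held the motif, for the 35 and for all genes alike. At least 1 octamer stood in 9 of the 35 genes (25.7%), against 6.63% of the 9911 tested genes with a window. The 35 genes had 1.49 windows each on average and all 9911 had 1.46, and 19.2% of the windows of the 35, against 4.83% of all windows, held an octamer. The 9 were EXO1, RMI1, XRCC2, FANCA, FANCC, FANCD2, MSH3, MSH6 and PMS2, and in EXO1 the match begins after the start, beyond the bases shown. Octamers were in 7 of 25 genes (28%) that rose in the estradiol effect averaged over both genotypes and in 2 of 10 (20%) that were not called there. RBBP8, with the largest effect of all 39, held none.

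For the other motifs the shares lay closer to those of all genes. CCAAT boxes, written CCAAT or ATTGG by strand, were in 17 of 35 genes (48.6%) against 43.2% of all genes with a window, among them BRCA1 and BLM. AGGTCA, a part of the estrogen response element and not the whole of it, was in 5 of 35 (14.3%) against 13.4% of all. The cell cycle homology region TTTGAA was in 3 of 35 (8.57%) against 13.5% of all.

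Estradiol raised the majority of the repair genes in both genotypes and lowered none. In HOXB13 cells 21 of the 39 genes rose and 0 fell, where 7.22% of all tested genes rose and 6.38% fell (edgeR's quasi-likelihood test, Benjamini-Hochberg adjusted p under 0.05 over all genes). In control cells 22 rose and 0 fell, where 8.65% of all tested genes rose and 6.72% fell. In the average over both genotypes 28 rose and 0 fell, where 14.6% of all tested genes rose and 13.5% fell. As the 39 genes were chosen with earlier results of these data known, these shares describe them and do not test them as a set. The 11 genes not called in the average were RAD50, NBN, RAD51B, RAD52, FANCF, FANCL, FANCM, MSH3, PMS2, ATM and ATR. The median log2 fold change of the 39 was 0.65 in HOXB13 cells and 0.74 in control cells, beside -0.01 over all tested genes in each. A rise of at least 2-fold was called for 9 genes in HOXB13 cells and 11 in control cells. The share of all tested genes called at that cutoff was not counted. Their 95th percentile of the log2 fold change was 0.84 in HOXB13 cells and 0.88 in control cells, both under a 2-fold rise.

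**Figure D2:**
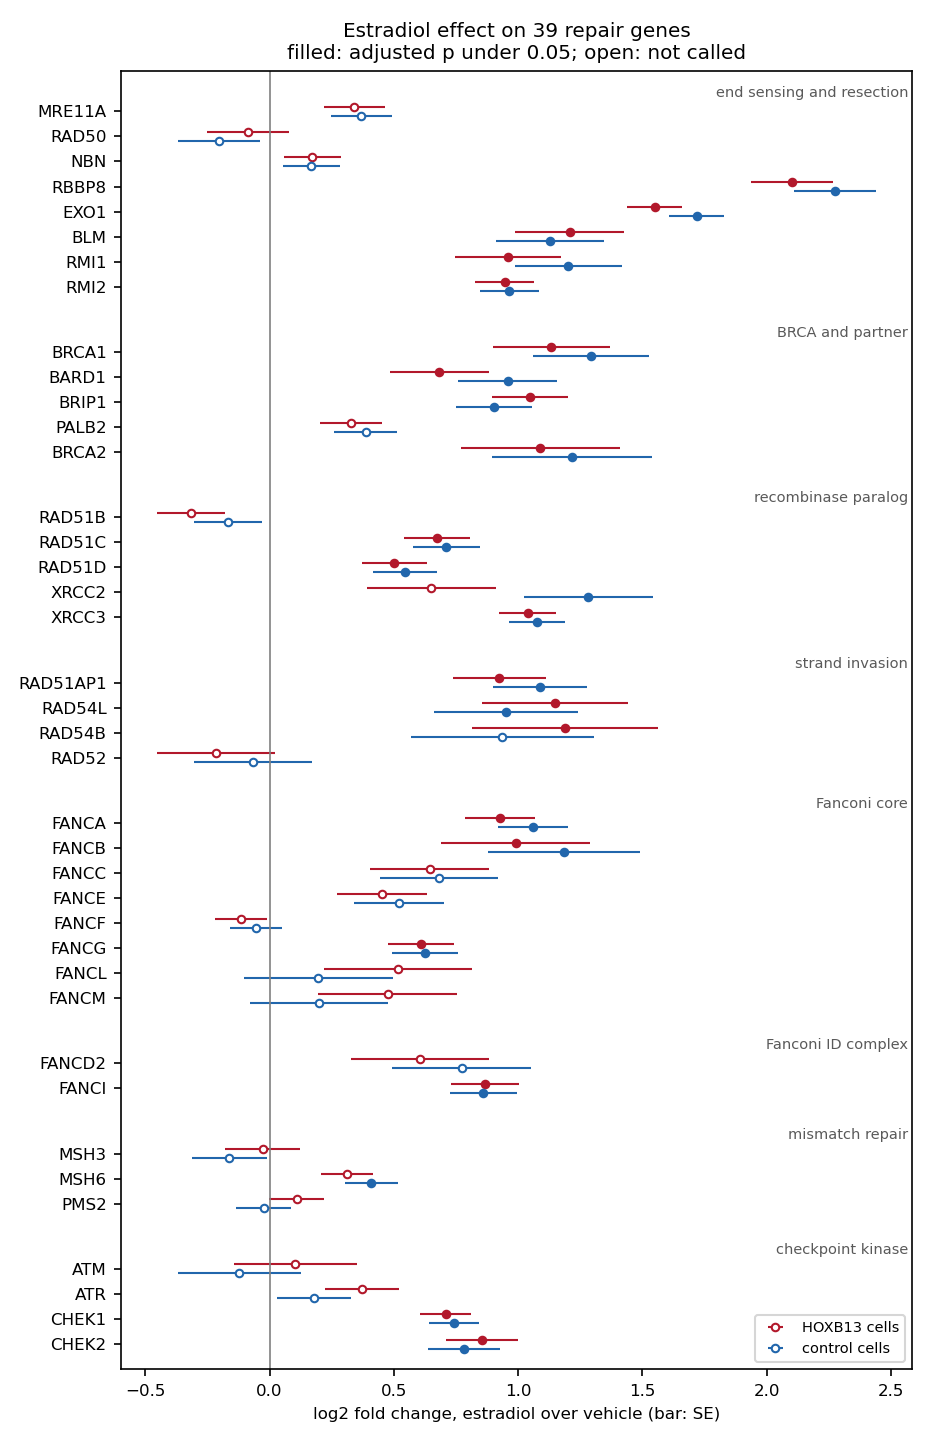
Estradiol effect on the 39 repair genes by role. The x axis is the log2 fold change of estradiol over vehicle with its SE, red in HOXB13 cells and blue in control cells; filled points passed an adjusted p of 0.05, 21 in HOXB13 cells and 22 in control cells. RBBP8 and EXO1 lie farthest to the right, and RAD50, RAD51B, RAD52, FANCF, MSH3 and ATM lie around 0 or to its left with open points.

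The same 20 genes rose in both genotypes, RAD54B passed the threshold in HOXB13 cells alone, XRCC2 and MSH6 passed it in control cells alone, and 16 passed in neither. The test of the difference between genotypes called none of these 3, as described further on. Equally numbered libraries deviated together from their group means, and with the replicate number as a block 29 genes rose in HOXB13 cells and 28 in control cells, 28 of them in both, where 15.5% and 17.5% of all tested genes rose. Without the libraries numbered 2 in every group, 25 rose in HOXB13 cells, 25 in control cells and 30 in the average, where 11.7%, 12.9% and 19.3% of all tested genes rose, while RAD50 fell in the average (log2 fold change -0.24, adjusted p = 0.0161). In fits without a block, the genes not called with these libraries that passed without them were MRE11A, FANCC and FANCD2 in both genotypes, FANCM (adjusted p = 0.0275) and ATR (adjusted p = 0.0183) in HOXB13 cells, and FANCM and ATR in the average. By the CPM alone, every estradiol library lay above every vehicle library for 24 genes in HOXB13 cells (15.3% of all tested genes did) and for 29 in control cells (16.1% of all tested genes did). Over both genotypes together, all 6 estradiol libraries lay above all 6 vehicle libraries for 23 genes (8.76% of all tested genes did) and below them for RAD51B alone (7.07% did). A CPM value is a share of the library, so a change in RNA per cell and a change in the proportion of cells that make it cannot be told apart.

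Of the 8 genes of end sensing and resection 6 rose in the average, among them the 2 largest effects of the 39. RBBP8 (CtIP), the cofactor that starts resection with MRN, had 125, 117 and 132 CPM in HOXB13 estradiol libraries, against 27.4, 25.4 and 34.4 in HOXB13 vehicle libraries. In control cells it had 112, 133 and 125 CPM with estradiol, against 20.7, 23.1 and 32.7 with vehicle. Every estradiol library was far above every vehicle library, and the genotypes overlapped within each treatment. Its log2 fold change was 2.10 ± 0.16 (adjusted p = 6.38e-06) in HOXB13 cells and 2.28 ± 0.17 (adjusted p = 1.68e-06) in control cells (mean ± SE, edgeR's quasi-likelihood test, as for all such values below).

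EXO1, the exonuclease of long-range resection that also serves mismatch repair, stood at 41.7, 41.4 and 39.8 CPM in HOXB13 estradiol libraries, against 12.4, 14.5 and 15.1 in HOXB13 vehicle libraries. Control cells had 41.5, 41.8 and 43 CPM with estradiol, against 13.6, 12 and 12.7 with vehicle. The treatments were far apart and library 2 did not stand apart. The log2 fold change was 1.55 ± 0.11 (adjusted p = 3.91e-06) in HOXB13 cells and 1.72 ± 0.11 (adjusted p = 9.35e-07) in control cells.

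BLM, the RecQ helicase of resection and of the dissolution of crossed strands, had 17.9, 12.6 and 17.1 CPM in HOXB13 estradiol libraries, against 6.75, 5.34 and 8.47 in HOXB13 vehicle libraries. In control cells the levels were 19.6, 16.6 and 18.2 CPM with estradiol, against 7.92, 6.13 and 10.9 with vehicle. Library 2 was the lowest in each group, yet the treatments did not overlap. The log2 fold change was 1.21 ± 0.22 (adjusted p = 0.00228) in HOXB13 cells and 1.13 ± 0.22 (adjusted p = 0.00262) in control cells. Its dissolvasome partners RMI1 and RMI2 rose as well. RMI1 changed by 0.96 ± 0.21 (adjusted p = 0.00760) in HOXB13 cells and 1.20 ± 0.21 (adjusted p = 0.00155) in control cells, and RMI2 by 0.95 ± 0.12 (adjusted p = 0.000156) and 0.96 ± 0.12 (adjusted p = 9.01e-05) in the same order.

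The MRN complex itself changed less. RAD50, its zinc-hook ATPase, had 108, 108 and 119.7 CPM in HOXB13 estradiol libraries, against 119, 94.7 and 144 in HOXB13 vehicle libraries. With estradiol it stood at 109, 90.7 and 105 CPM in control cells, against 120.1, 90.2 and 141 with vehicle. The groups overlapped, and the log2 fold change of -0.09 ± 0.16 (adjusted p = 0.801) in HOXB13 cells and -0.20 ± 0.16 (adjusted p = 0.466) in control cells was not called. The nuclease MRE11A averaged 40.7 ± 5.49 CPM in HOXB13 estradiol and 32.2 ± 3.97 in HOXB13 vehicle libraries, and 41.1 ± 1.28 in control estradiol and 31.8 ± 1.29 in control vehicle libraries (SD, n = 3 each). It was not called in HOXB13 cells (0.34 ± 0.12, adjusted p = 0.0866, 0.00747 when blocked by replicate number, 0.0322 when HOXB13 estradiol library 2 was left out) or in control cells (0.37 ± 0.12, adjusted p = 0.0588, 0.00326 with the block), but it rose in the average (0.35 ± 0.09, adjusted p = 0.00721). NBN, the subunit that recruits ATM, was called in neither genotype, at 0.17 ± 0.11 (adjusted p = 0.381) in HOXB13 cells and 0.17 ± 0.11 (adjusted p = 0.373) in control cells. Its average was 0.17 ± 0.08 and was not called (adjusted p = 0.137), but passed with the replicate block (adjusted p = 0.00993).

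Of BRCA1, its partners and BRCA2, 4 of 5 rose in each genotype and all 5 in the average. BRCA1, the scaffold of a ubiquitin ligase, had 88.6, 79.1 and 84.9 CPM in HOXB13 estradiol libraries, against 37.1, 26.7 and 51.3 in HOXB13 vehicle libraries. Control libraries had 97.8, 72.2 and 92.6 CPM with estradiol, against 35.1, 24.5 and 47.6 with vehicle. Each estradiol library exceeded each vehicle library, and library 2 was the lowest of each group. The log2 fold change was 1.13 ± 0.23 (adjusted p = 0.00494) in HOXB13 cells and 1.29 ± 0.23 (adjusted p = 0.00178) in control cells.

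BRCA2, the loader of the recombinase, was at 24.8, 18.1 and 22.5 CPM in HOXB13 estradiol libraries, against 10.3, 6.34 and 14.1 in HOXB13 vehicle libraries. Control cells held 23.8, 15 and 20.8 CPM with estradiol, against 8.52, 4.55 and 12.6 with vehicle. The treatments did not overlap, but libraries 2 lay well under libraries 1 and 3, and the SE is large. BRCA2 rose by 1.09 ± 0.32 (adjusted p = 0.0365) in HOXB13 cells and 1.22 ± 0.32 (adjusted p = 0.0194) in control cells. The call in HOXB13 cells was lost without HOXB13 estradiol libraries 1 or 3 or HOXB13 vehicle libraries 1 or 2 (adjusted p = 0.0959 to 0.123), and that in control cells without control estradiol libraries 1 or 3 or control vehicle library 1 (adjusted p = 0.0610 to 0.0695).

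BARD1, the RING partner of BRCA1, rose by 0.68 ± 0.20 (adjusted p = 0.0348) in HOXB13 cells and 0.96 ± 0.20 (adjusted p = 0.00458) in control cells. In HOXB13 cells that call was lost without HOXB13 estradiol libraries 1 or 3 or HOXB13 vehicle libraries 1 or 2 (adjusted p = 0.0748 to 0.152). BRIP1, the helicase also known as FANCJ, rose by 1.05 ± 0.15 (adjusted p = 0.000519) in HOXB13 cells and 0.90 ± 0.15 (adjusted p = 0.00109) in control cells. PALB2, which bridges BRCA1 and BRCA2, changed by less. It passed only in the average of the genotypes (0.36 ± 0.09, adjusted p = 0.00784), with 0.33 ± 0.13 (adjusted p = 0.108) in HOXB13 cells and 0.39 ± 0.13 (adjusted p = 0.0522) in control cells, and with the replicate block its adjusted p was 0.0296 in HOXB13 cells and 0.00973 in control cells.

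**Figure D3:**
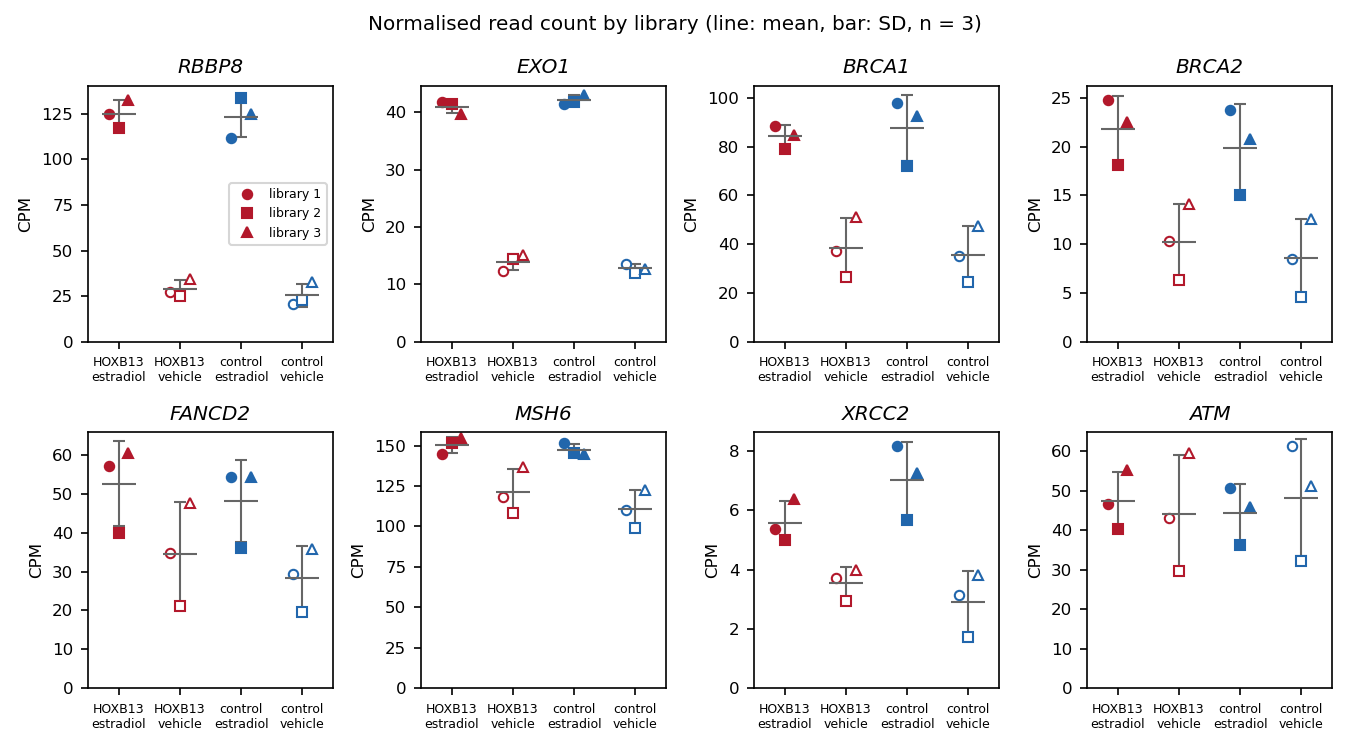
Normalised read count (CPM) of 8 repair genes in the 12 libraries. Each panel is a gene with its own y axis that starts at 0; circles, squares and triangles are libraries 1, 2 and 3, filled for estradiol and open for vehicle, with the mean and SD of 3 libraries. Estradiol and vehicle libraries are apart for RBBP8, EXO1, BRCA1, BRCA2 and XRCC2, library 2 is the lowest of every group for FANCD2, and ATM overlaps throughout.

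Of the 5 recombinase paralogs, which stabilise the filament, 4 rose in the average and RAD51B was not called. RAD51B had 7.75, 6.98 and 8.02 CPM in HOXB13 estradiol libraries, against 10.03, 8.77 and 9.52 in HOXB13 vehicle libraries. Control libraries gave 7.42, 7.89 and 7.80 CPM with estradiol, against 9.13, 8.24 and 8.61 with vehicle. It was the only one of the 39 genes with every estradiol library below every vehicle library in each genotype, which 14.7% of all tested genes showed in HOXB13 cells and 14.9% in control cells. The log2 fold change of -0.32 ± 0.14 (adjusted p = 0.153) in HOXB13 cells and -0.17 ± 0.14 (adjusted p = 0.466) in control cells was not called, nor was the average (-0.24 ± 0.10, adjusted p = 0.0757).

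XRCC3 rose by 1.04 ± 0.11 (adjusted p = 5.27e-05) in HOXB13 cells and 1.08 ± 0.11 (adjusted p = 2.41e-05) in control cells, and RAD51C by 0.67 ± 0.13 (adjusted p = 0.00374) and 0.71 ± 0.13 (adjusted p = 0.00224) in the same order. RAD51D rose by 0.50 ± 0.13 (adjusted p = 0.0195) in HOXB13 cells, a call lost without HOXB13 estradiol libraries 2 or 3 or HOXB13 vehicle library 3 (adjusted p = 0.0614 to 0.0791) and without the libraries numbered 2 in every group (0.0533). In control cells RAD51D rose by 0.55 ± 0.13 (adjusted p = 0.0101), a call lost without control estradiol library 3 (adjusted p = 0.0583).

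XRCC2 showed the widest gap between the genotypes' responses. It had 5.36, 5.0 and 6.39 CPM in HOXB13 estradiol libraries, against 3.72, 2.96 and 3.98 in HOXB13 vehicle libraries. Control cells had 8.16, 5.68 and 7.27 CPM with estradiol, against 3.16, 1.72 and 3.81 with vehicle. The treatments did not overlap in either genotype. XRCC2 rose in control cells (1.28 ± 0.26, adjusted p = 0.00380) and was not called in HOXB13 cells (0.65 ± 0.26, adjusted p = 0.119), where the replicate block gave an adjusted p of 0.0164.

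Genes of strand invasion divided into 3 that rose and RAD52. RAD51AP1, which stimulates the joining of the invading strand, had 7.12, 9.38 and 8.83 CPM in HOXB13 estradiol libraries, against 4.91, 4.86 and 3.56 in HOXB13 vehicle libraries. In control cells its levels were 8.74, 7.79 and 7.27 CPM with estradiol, against 3.46, 3.40 and 4.33 with vehicle. The treatments did not overlap, and it rose by 0.92 ± 0.19 (adjusted p = 0.00443) in HOXB13 cells and 1.09 ± 0.19 (adjusted p = 0.00135) in control cells.

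RAD54B, a DNA translocase, was variable, at 7.70, 3.70 and 6.07 CPM in HOXB13 estradiol libraries, against 2.03, 1.64 and 3.98 in HOXB13 vehicle libraries. In the control line it had 5.91, 4.85 and 5.87 CPM with estradiol, against 2.86, 1.63 and 4.23 with vehicle. The treatments overlapped in HOXB13 cells and not in control cells, yet the test passed in HOXB13 cells (1.19 ± 0.37, adjusted p = 0.0487) and not in control cells (0.94 ± 0.37, adjusted p = 0.107, 0.00269 with the replicate block). The HOXB13 call was lost without HOXB13 estradiol libraries 1 or 3 or HOXB13 vehicle libraries 1 or 2 (adjusted p = 0.120 to 0.197). Its relative RAD54L rose by 1.15 ± 0.29 (adjusted p = 0.0177) in HOXB13 cells and 0.95 ± 0.29 (adjusted p = 0.0386) in control cells. These RAD54L calls were lost without HOXB13 estradiol libraries 1 or 3 or HOXB13 vehicle library 1 (adjusted p = 0.0533 to 0.0570) in HOXB13 cells, and without control estradiol libraries 1 or 3 or control vehicle libraries 1 or 2 (adjusted p = 0.0940 to 0.125) in control cells.

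RAD52, which anneals single strands, had 7.97, 6.51 and 8.29 CPM in HOXB13 estradiol libraries, against 10.03, 6.55 and 9.83 in HOXB13 vehicle libraries. Levels in control cells were 8.45, 4.85 and 8.0 CPM with estradiol, against 9.28, 6.13 and 6.94 with vehicle. All groups overlapped, and neither -0.22 ± 0.24 (adjusted p = 0.630) in HOXB13 cells nor -0.07 ± 0.24 (adjusted p = 0.894) in control cells was called.

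In the Fanconi core complex, the ubiquitin ligase of the pathway, 5 of 8 genes rose in the average over genotypes, and 3 did so in each genotype. FANCA had 24.7, 21.9 and 22.9 CPM in HOXB13 estradiol libraries, against 10.5, 12.8 and 13.3 in HOXB13 vehicle libraries. Its levels in control cells were 21.7, 22.9 and 20.6 CPM with estradiol, against 10.9, 8.72 and 11.7 with vehicle. The treatments were well apart, and FANCA rose by 0.93 ± 0.14 (adjusted p = 0.000630) in HOXB13 cells and 1.06 ± 0.14 (adjusted p = 0.000177) in control cells.

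FANCG rose by 0.61 ± 0.13 (adjusted p = 0.00691) in HOXB13 cells and 0.62 ± 0.13 (adjusted p = 0.00511) in control cells. FANCB, at 1.41 to 3.32 CPM on average per group, rose by 0.99 ± 0.30 (adjusted p = 0.0422) in HOXB13 cells and 1.19 ± 0.30 (adjusted p = 0.0161) in control cells. The FANCB calls were lost without HOXB13 estradiol libraries 1 or 3 or HOXB13 vehicle libraries 1, 2 or 3 (adjusted p = 0.0544 to 0.192) in HOXB13 cells, and without control estradiol library 1 or control vehicle library 2 (adjusted p = 0.0503 to 0.0524) in control cells. FANCC and FANCE passed only in the average, at 0.66 ± 0.17 (adjusted p = 0.00895) and 0.49 ± 0.13 (adjusted p = 0.0111).

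With the replicate block FANCC passed in HOXB13 cells (adjusted p = 0.00540) and in control cells (adjusted p = 0.00231), and FANCE did too (0.0291 and 0.0113 in the same order). Leaving out HOXB13 estradiol library 2 also brought FANCC past the threshold in HOXB13 cells (0.0239), and leaving out control vehicle library 3 did so for FANCE in control cells (0.0392). The other 3 core genes were not called. They were FANCL, the catalytic subunit (average 0.36 ± 0.21, adjusted p = 0.234), FANCM, the translocase that anchors the complex (average 0.34 ± 0.20, adjusted p = 0.226), and FANCF. For FANCM the average passed with the replicate block (adjusted p = 0.0469) and without the libraries numbered 2 (adjusted p = 0.00291).

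FANCF, an adaptor of the core complex, had 30.1, 30.3 and 32.2 CPM in HOXB13 estradiol libraries, against 34.9, 35.6 and 29.9 in HOXB13 vehicle libraries. In control cells it was at 33.4, 36.3 and 33.8 CPM with estradiol, against 35.5, 37.9 and 33.9 with vehicle. The treatments overlapped, with log2 fold changes of -0.12 ± 0.11 (adjusted p = 0.548) in HOXB13 cells and -0.05 ± 0.10 (adjusted p = 0.792) in control cells.

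FANCI and FANCD2 form the clamp that the core complex ubiquitinates. FANCI had 92.8, 80.9 and 89 CPM in HOXB13 estradiol libraries, against 47.1, 46.4 and 50.6 in HOXB13 vehicle libraries. Control cells had 91, 81.8 and 94 CPM with estradiol, against 42.4, 43 and 61.6 with vehicle. The treatments did not overlap, and FANCI rose by 0.87 ± 0.14 (adjusted p = 0.000796) in HOXB13 cells and 0.86 ± 0.14 (adjusted p = 0.000641) in control cells.

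FANCD2 had 57.2, 40.02 and 60.4 CPM in HOXB13 estradiol libraries, against 34.6, 21.2 and 47.7 in HOXB13 vehicle libraries. In control cells the values were 54.3, 36 and 54.4 CPM with estradiol, against 29.3, 19.5 and 35.9 with vehicle. Library 2 was the lowest by far in all 4 groups, and in HOXB13 cells its estradiol value fell below the vehicle value of library 3, while each estradiol library exceeded its equally numbered vehicle library in both genotypes. Without the block FANCD2 was not called in HOXB13 cells (0.61 ± 0.28, adjusted p = 0.181) or in control cells (0.77 ± 0.28, adjusted p = 0.0785). With the replicate block the adjusted p was 1.68e-05 in HOXB13 cells and 1.0e-06 in control cells, and without the libraries numbered 2 it was 0.00575 and 0.000231 in the same order. Leaving out control estradiol library 2 alone gave 0.0496 in control cells. The average over genotypes passed (0.69 ± 0.20, adjusted p = 0.0169).

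Of the 3 mismatch repair genes 1 rose in the average, and their median log2 fold change of 0.04 was the lowest of the 8 roles. With 3 genes that median is the value of PMS2 alone. EXO1, which also serves mismatch repair, was counted under resection. MSH6, which recognises single mismatches, had 145, 152 and 155 CPM in HOXB13 estradiol libraries, against 118, 109 and 137 in HOXB13 vehicle libraries. Control libraries held 151, 145 and 145 CPM with estradiol, against 110.5, 98.9 and 123 with vehicle. The treatments did not overlap in either genotype. The change was 0.31 ± 0.11 (adjusted p = 0.0694) in HOXB13 cells, not called, with an adjusted p of 0.00204 when blocked by replicate number and of 0.0326 when HOXB13 vehicle library 3 was left out. MSH6 rose in control cells (0.41 ± 0.11, adjusted p = 0.0171), a call lost without control estradiol libraries 1 or 3 or control vehicle libraries 1 or 2 (adjusted p = 0.0509 to 0.0565).

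MSH3, which recognises small loops, had 35.3, 34.6 and 36.5 CPM in HOXB13 estradiol libraries, against 37.6, 28.6 and 42.1 in HOXB13 vehicle libraries. In control cells it was measured at 32.4, 28.2 and 31.3 CPM with estradiol, against 33.7, 28.5 and 40.6 with vehicle. The treatments overlapped, and neither -0.03 ± 0.15 (adjusted p = 0.940) in HOXB13 cells nor -0.16 ± 0.15 (adjusted p = 0.537) in control cells was called. PMS2, the endonuclease that nicks the mismatched strand, averaged 44 ± 2.17 CPM in HOXB13 estradiol and 40.8 ± 4.34 in HOXB13 vehicle libraries, and 43.2 ± 3.29 in control estradiol and 44 ± 3.43 in control vehicle libraries (SD, n = 3 each). It was not called, at 0.11 ± 0.11 (adjusted p = 0.606) in HOXB13 cells and -0.02 ± 0.11 (adjusted p = 0.923) in control cells. PMS2 shares sequence with its pseudogenes, so its level is uncertain. Those with enough reads to be tested were PMS2P5 (140 to 257 counts per library), PMS2P1 (71 to 131), PMS2P4 (68 to 112), PMS2P3 (42 to 101) and PMS2CL (42 to 92).

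Of the checkpoint kinases, both effector kinases rose and both apical kinases were not called. CHEK1, the effector downstream of ATR, had 93, 92.3 and 83 CPM in HOXB13 estradiol libraries, against 54.3, 50.6 and 59.2 in HOXB13 vehicle libraries. It was at 90.5, 95 and 92.1 CPM in control cells with estradiol, against 51.2, 54.1 and 60.7 with vehicle. The treatments were apart and library 2 was not low, and CHEK1 rose by 0.71 ± 0.10 (adjusted p = 0.000441) in HOXB13 cells and 0.74 ± 0.10 (adjusted p = 0.000214) in control cells. CHEK2, the effector downstream of ATM, rose by 0.85 ± 0.15 (adjusted p = 0.00141) in HOXB13 cells and 0.78 ± 0.14 (adjusted p = 0.00200) in control cells.

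ATM, the kinase of double-strand breaks, had 46.6, 40.4 and 55.2 CPM in HOXB13 estradiol libraries, against 43.2, 29.7 and 59.5 in HOXB13 vehicle libraries. In control cells ATM stood at 50.8, 36.4 and 45.8 CPM with estradiol, against 61.4, 32.2 and 51.2 with vehicle. The spread within each group, where library 2 was again the lowest, was larger than the difference between the group means. The log2 fold change was 0.10 ± 0.25 (adjusted p = 0.845) in HOXB13 cells, with a 95% interval of -0.43 to 0.64, and -0.12 ± 0.25 (adjusted p = 0.801) in control cells, with an interval of -0.65 to 0.41. ATR, the kinase of stalled forks, was not called at 0.37 ± 0.15 (adjusted p = 0.123) in HOXB13 cells, where the replicate block gave 0.00194, or at 0.18 ± 0.15 (adjusted p = 0.482) in control cells. Its average over genotypes was 0.28 ± 0.11 (adjusted p = 0.0663) and passed without HOXB13 estradiol library 2 (0.0288) or HOXB13 vehicle library 3 (0.0394). With the replicate block the adjusted p of the ATR average was 0.00065.

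Further genes of the same pathways were set beside the 39. All lists of other genes were likewise chosen with earlier results of these data known. Of 52 further genes of homologous recombination, the Fanconi pathway and mismatch repair, 13 rose and 0 fell in HOXB13 cells. There 7.22% of all tested genes rose and 6.38% fell. In control cells 16 of the 52 rose and 0 fell, where 8.65% of all tested genes rose and 6.72% fell. In the average 21 of the 52 rose and 2 fell, where 14.6% of all tested genes rose and 13.5% fell. The median log2 fold change in the average was 0.29 for the 52 and 0.69 for the 39, of which 28 rose and 0 fell. The difference between the lists was not tested. The largest rises were those of CLSPN, a mediator of CHEK1 activation (1.31 ± 0.17, adjusted p = 4.34e-05), and EME1, a nuclease subunit that cuts branched DNA (1.10 ± 0.14, adjusted p = 4.11e-05). WDR48, the cofactor of the enzyme that deubiquitinates the clamp, fell (-0.28 ± 0.09, adjusted p = 0.0325), and ERCC1, a subunit of a nuclease that unhooks crosslinks, was not called (-0.24 ± 0.10, adjusted p = 0.0713).

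Genes of other repair routes were counted in the same average, in which 14.6% of all tested genes rose and 13.5% fell, and their difference from the 39 genes was not tested. Of 15 end joining genes 1 rose and 2 fell, with a median of 0.12. The gene that rose was POLQ, the polymerase that joins resected ends (1.28 ± 0.26, adjusted p = 0.00196), and the ligase gene LIG3 (-0.25 ± 0.07, adjusted p = 0.0113) and the polymerase gene POLL (-0.20 ± 0.07, adjusted p = 0.0394) fell, while PRKDC, the kinase that holds broken ends, was not called (0.32 ± 0.15, adjusted p = 0.136). Of 22 nucleotide excision repair genes 2 rose and 1 fell, with a median of 0.00. Among them GTF2H2, a subunit of the general factor TFIIH, rose (0.48 ± 0.17, adjusted p = 0.0497), ERCC5, the nuclease that cuts beside the lesion, fell (-0.53 ± 0.09, adjusted p = 0.000497), and UVSSA was not called (-0.33 ± 0.20, adjusted p = 0.249).

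Genes of DNA replication and mitosis rose with the repair genes. Of all tested genes 14.6% rose and 13.5% fell in the average, while 7.22% rose in HOXB13 cells and 8.65% in control cells. All 44 replication genes rose in the average, with a median log2 fold change of 1.13, as did 42 in HOXB13 cells and 43 in control cells. They ran between POLD3, a polymerase subunit (0.50 ± 0.09, adjusted p = 0.000961), and CDC45, a part of the replicative helicase (1.65 ± 0.15, adjusted p = 2.62e-06), with MCM10 near the top (1.54 ± 0.15, adjusted p = 5.86e-06) and RRM1 near the bottom (0.53 ± 0.08, adjusted p = 0.000136). Of 30 mitosis genes 27 rose and 0 fell in the average, with a median of 0.67, and 23 rose in HOXB13 cells and 24 in control cells. MAD2L1, a spindle checkpoint protein (1.10 ± 0.12, adjusted p = 1.63e-05), and ESPL1, the protease separase (1.04 ± 0.08, adjusted p = 3.10e-07), rose most, and CENPF (0.31 ± 0.13, adjusted p = 0.105) and CENPE (0.31 ± 0.20, adjusted p = 0.273) were not called. Their part in the rise of the repair genes was not tested.

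**Figure D4:**
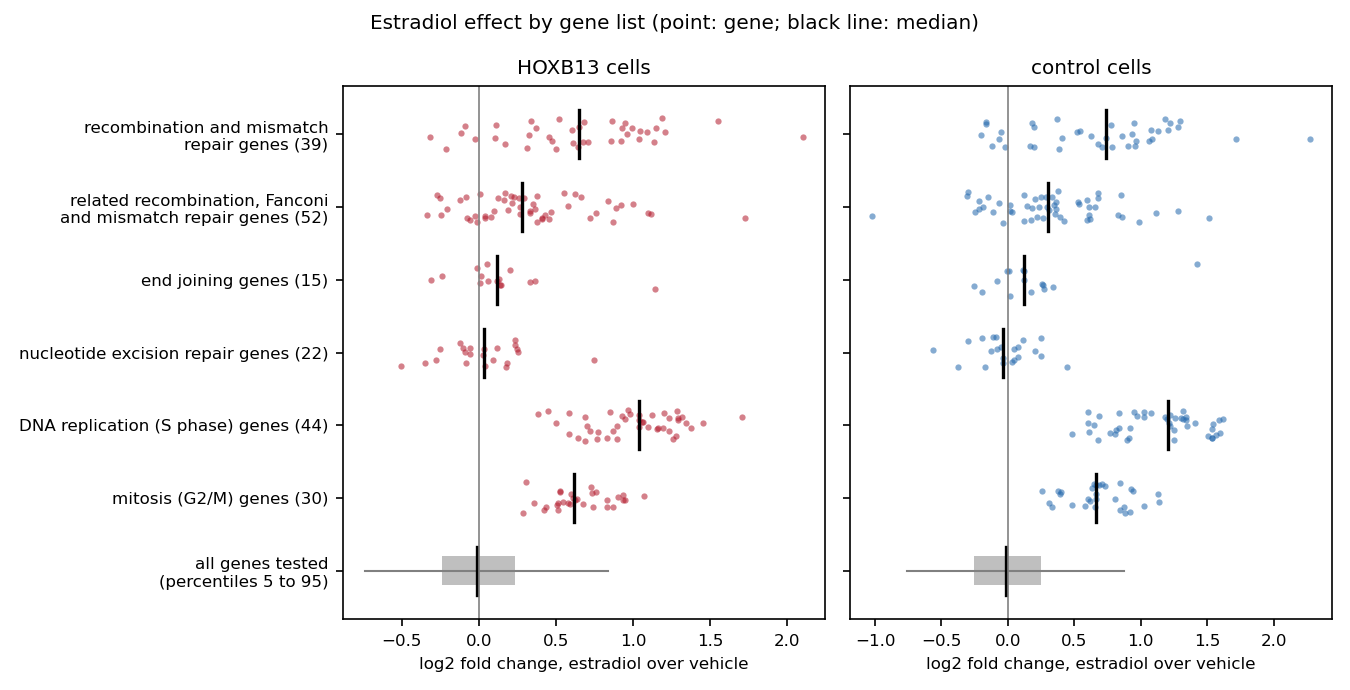
Estradiol effect by list of genes, in HOXB13 cells (left) and control cells (right). The x axis is the log2 fold change of estradiol over vehicle; points are genes, black lines are list medians, and the bottom row gives percentiles 25 to 75 (box) and 5 to 95 (line) of all genes tested. The replication genes lie wholly to the right of 0, the 39 recombination and mismatch repair genes have medians of 0.65 and 0.74, and the medians are 0.12 and 0.12 for end joining genes, of which POLQ lies farthest to the right, and 0.03 and -0.04 for nucleotide excision repair genes.

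Some repair genes share a promoter region with a gene on the other strand. RefSeq places the start of a divergent gene within 1000 bases of 16 of the 39 genes, in 17 pairs, 11 of them with a neighbour that was tested. In the pair of PMS2 and AIMP2, with starts 166 bases apart, PMS2 was not called while AIMP2, a scaffold of transfer RNA synthetases, rose. AIMP2 had 46.7, 51.2 and 44.5 CPM in HOXB13 estradiol libraries, against 29.6, 30.6 and 25.7 in HOXB13 vehicle libraries. In control cells AIMP2 had 44.8, 52.7 and 46.2 CPM with estradiol, against 22, 33.4 and 26.6 with vehicle. Its log2 fold change was 0.73 (adjusted p = 0.00360) in HOXB13 cells and 0.81 (adjusted p = 0.00150) in control cells.

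BRCA1 rose while NBR2, whose start is 193 bases away, was not called in HOXB13 cells (0.01, adjusted p = 0.993) or control cells (0.08, adjusted p = 0.926). A more distant start listed for BRCA1 lies 82 bases from that of NBR1, an autophagy receptor gene, which fell by 0.42 (adjusted p = 0.0114) on the log2 scale in HOXB13 cells and by 0.47 (adjusted p = 0.00459) in control cells. XRCC3, CHEK2, RMI1, RAD51AP1 and FANCB rose in both genotypes, and their neighbours ZFYVE21, HSCB, HNRNPK, C12orf4 and MOSPD2 were not called in either. The neighbours of MRE11A (ANKRD49), PALB2 (DCTN5) and ATM (NPAT) were not called either. Whether the authors counted reads by strand is not given in the sources used here, so reads where such genes overlap cannot be assigned.

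HOXB13 had no detectable effect on any of the 39 genes, and hardly any tested gene was called in the same fits. In estradiol 0 of the 39 were called, where 0.0135% of all tested genes (2 of 14799) were higher in HOXB13 cells and 0% lower. In vehicle 0 of the 39 were called, where 0.0203% of all tested genes (3 of 14799) were higher and 0% lower. In the average over treatments 0 were called, where 0.0878% of all tested genes (13) were higher and 0.0608% (9) lower. At an unadjusted p under 0.05, 0 of the 39 genes passed in each of these comparisons. Of the 14799 tested genes 489, 559 and 896 passed in estradiol, in vehicle and in the average. These are small shares, so 0 of 39 does not set the repair genes apart. DESeq2 and limma-voom also called 0 of the 39 in each, and so did the replicate block, which raised the number of all genes called to 21 higher and 37 lower in estradiol and to 28 higher and 32 lower in vehicle.

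The estimates were small, and their intervals bound what the fits with no block could show. Intervals with the replicate block were not computed. Log2 fold changes of the 39 genes, HOXB13 over control cells, ran from -0.33 to 0.23 in estradiol and from -0.27 to 0.31 in vehicle, and the 95% intervals reached a median of 0.324 to either side in estradiol and 0.332 in vehicle. In the average over treatments they reached a median of 0.231 to either side. For BRCA1 the average effect was 0.02 ± 0.16 with a 95% interval of -0.33 to 0.37, for RBBP8 0.10 ± 0.11 with an interval of -0.14 to 0.34, and for CHEK1 -0.03 ± 0.07 with an interval of -0.19 to 0.12. Variable genes had wider intervals, such as -0.29 to 0.68 for BRCA2.

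The 2 genes with the lowest unadjusted p in the average were FANCF and FANCA, whose libraries are given above. FANCF was lower in HOXB13 cells by 0.13 ± 0.07 on the log2 scale (adjusted p = 0.945, edgeR's quasi-likelihood test), and in estradiol each HOXB13 library lay below each control library. FANCA was 0.16 ± 0.10 higher in HOXB13 cells (adjusted p = 0.955, same test), with overlap in both treatments. In estradiol MSH3 was the only one of the 39 with each HOXB13 library above each control library, which 4.51% of all tested genes showed, and FANCF the only one with each below, which 5.37% showed. In vehicle 0 of the 39 lay wholly above, where 3.59% of all tested genes did, and 0 wholly below, where 3.54% did.

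**Figure D5:**
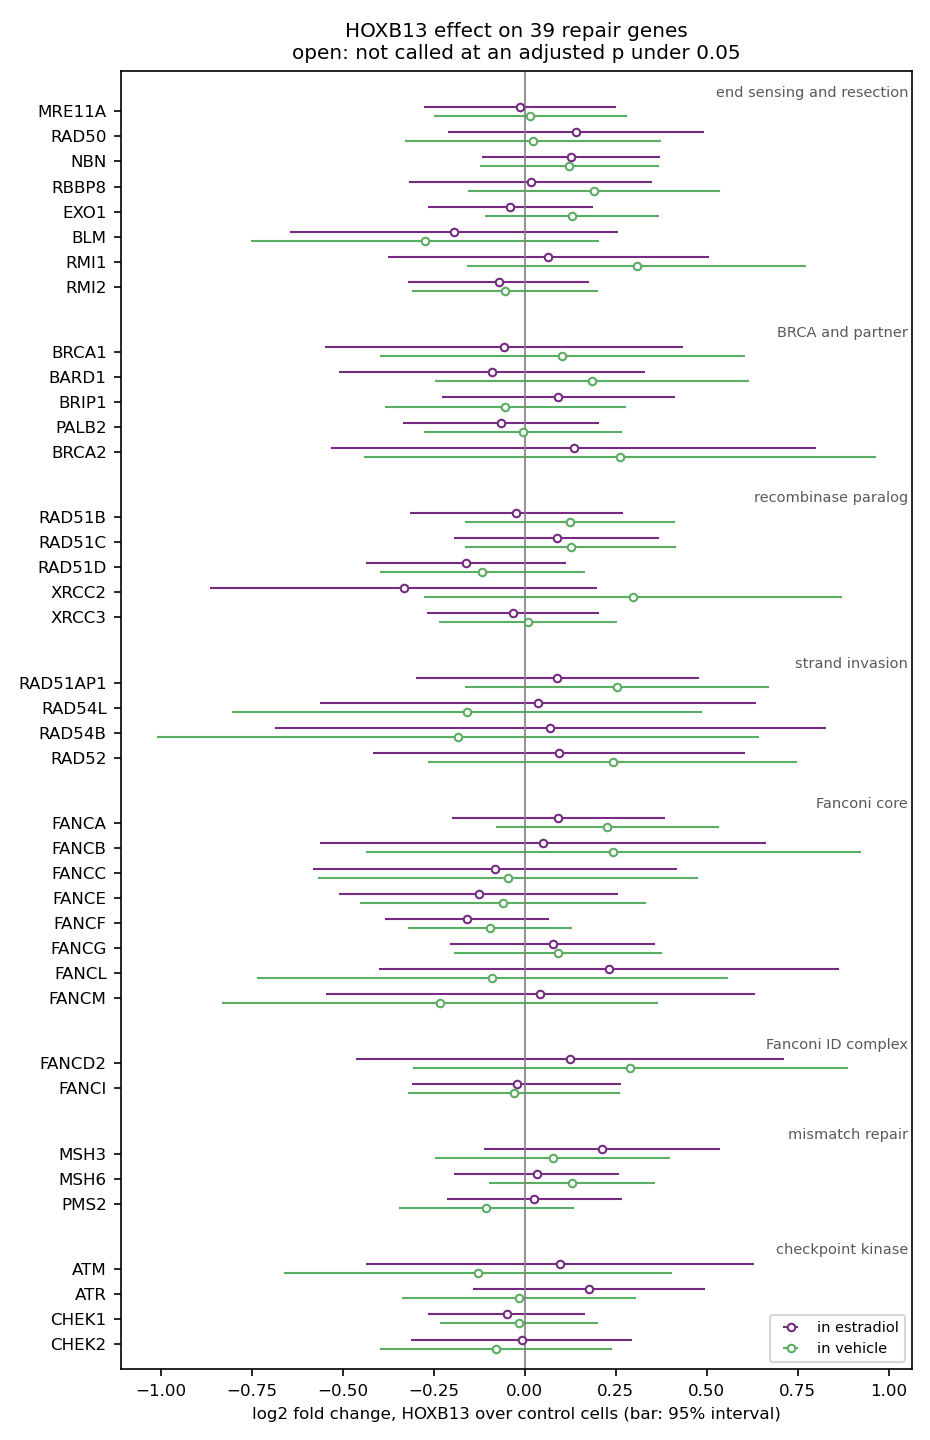
HOXB13 effect on the 39 repair genes by role. The x axis is the log2 fold change of HOXB13 over control cells with its 95% interval, purple in estradiol and green in vehicle; open points did not pass an adjusted p of 0.05. All intervals cover 0, and the 4 widest in each treatment belong to RAD54B, BRCA2, FANCB and FANCL.

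The response to estradiol did not differ detectably between the genotypes. The test of the difference called 0 of the 39 genes and 0% of all tested genes. At an unadjusted p under 0.05 there were 0 of the 39 and 219 of the 14799 tested genes, a small share that does not set the 39 apart. The log2 fold change was larger in HOXB13 cells for 14 genes and larger in control cells for 25. Over all tested genes it was larger in HOXB13 cells for 7231 and in control cells for 7568. For the replication genes these counts were 9 and 35, and for the mitosis genes 11 and 19. Such counts were not tested. Differences, HOXB13 minus control, ran from -0.63 for XRCC2 to 0.32 for FANCL. Their 95% intervals, from the fit with no block, reached a median of 0.462 to either side. XRCC2 had the lowest p, with a difference of -0.63 ± 0.37 (95% interval -1.42 to 0.15, adjusted p = 1, edgeR's quasi-likelihood test). RAD54B and MSH6, which were called in 1 genotype only, differed by 0.25 ± 0.52 (95% interval -0.87 to 1.37) and -0.10 ± 0.15 (95% interval -0.42 to 0.22). The difference for RBBP8 was -0.17 ± 0.22 (95% interval -0.65 to 0.31).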

How the data were processed

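Total RNA of 12 libraries was sequenced by a service provider, per the labels' protocols. The authors deposited raw counts per gene symbol, 1 column per library. FastQC, STAR, Picard and HTSeq and the builds GRCh37 and hg19 are named in the submitters' processing notes. No source used here gives their versions, the annotation or the strand setting. The 39 genes and all gene lists were chosen with earlier results of these data known.

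Of 55882 symbols, 30284 had no count, and filterByExpr (minimum count 10, minimum total 15) kept 14799. Counts were scaled by TMM factors (0.974 to 1.04) and tested with edgeR 4.0.16 in R 4.3.3, in 7 contrasts of the 4 group means fitted to the 12 libraries together (robust quasi-likelihood test, Benjamini-Hochberg adjustment over all tested genes, threshold 0.05). The fit was tested on simulated data. Levels are CPM of effective library sizes and are not divided by gene length, so they are not compared between genes. The genes with per-library values were the 5 highest and 5 lowest in the average estradiol effect, 8 fixed genes, those called in 1 genotype only and the lowest p values for HOXB13 and the difference.

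To see whether replicate numbers pair the libraries, each gene's deviation from its group mean was correlated between libraries of the same number. The estradiol comparison gave r of 0.184 to 0.354 among HOXB13 cells and 0.132 to 0.457 among control cells. The HOXB13 comparison gave 0.123 to 0.311 under estradiol and 0.125 to 0.409 under vehicle. Libraries of different numbers gave r of up to 0.0737 in HOXB13 cells and 0.105 in control cells for the estradiol comparison. For the HOXB13 comparison they gave up to 0.120 under estradiol and 0.169 under vehicle, the latter above the lowest r of equal numbers. As every r of equal numbers was over 0.1, the numbers were taken to pair the libraries there, a weak ground where the ranges overlap. The reported fits have no block, and blocked values stand beside the results whose call they change. The pairing comes from these data, not the labels. Alternatives were DESeq2 1.42.0 size factors and test, limma 3.58.1 voom, no filter, the 2 groups alone, the replicate block, each library left out and all libraries 2 left out. MRE11A is also called MRE11. The values of 1 gene of the nucleotide excision repair list are not reported here.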

Additional observations from a re-analysis of the deposited data

How the results depend on the processing

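No estradiol call among the 39 genes changed sign under any alternative. The number that rose in HOXB13 cells was 21, and 15 to 22 with 1 library left out, 21 with DESeq2 size factors, 22 with DESeq2, 20 with limma-voom, 22 with no filter, 18 with the 2 groups alone, 29 with the replicate block and 25 without replicate 2. In control cells it was 22, and 18 to 23 with 1 library left out, then 22, 27, 23, 25, 23, 28 and 25 in the same order. In the average it was 28, and 28 to 29 with 1 library left out, 30 with no filter, 31 with the block and 30 without replicate 2, where 1 gene, RAD50, fell. The lowest correlation between equally numbered libraries across all groups was 0.0926, so the averages were not treated as paired; the block added NBN, FANCM and ATR there. No alternative called any of the 39 genes in a HOXB13 comparison or in the difference.

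Counts over all tested genes moved more. The block gave 2297 higher and 2222 lower for estradiol in HOXB13 cells, 2594 and 2438 in control cells, and 3362 and 3369 in the average. Without replicate 2 there were 1741 and 1544 in HOXB13 cells and 1917 and 1650 in control cells. The reported fit had 1068 and 944 in HOXB13 cells and 1280 and 995 in control cells. In HOXB13 cells DESeq2 gave 1318 and 1232, limma-voom 1074 and 913, no filter 1235 and 1066, and the 2 groups alone 957 and 753. In control cells these were 1531 and 1287, 1315 and 993, 1426 and 1182, and 1022 and 776. With 1 library left out the lowest were 689 and 527 in HOXB13 cells and 861 and 587 in control cells. For HOXB13 in estradiol DESeq2 called 11 higher and 9 lower, no filter 16 and 14, the block 21 and 37, and the fit without replicate 2 called 8 and 13. For HOXB13 in vehicle these were 13 and 7, 37 and 25, 28 and 32, and 28 and 9. For its average they were 50 and 54, 71 and 70, 158 and 228, and 65 and 91, and 5 to 19 and 4 to 13 with 1 library left out. The cause was not tested. Among genes not called, 8 estimates near 0 (RAD50, MSH3, RAD52, FANCL, PMS2 and ATM) took the other sign under some setting. Depth limits FANCB, at 1.41 to 3.32 CPM.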
